A study of Mus musculus with 6 samples.

Results

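The actin cytoskeleton genes described here are 50 of the 35427 genes that could be read from the deposited expression table, and all 50 were among the 9800 genes tested. They comprise the cytoplasmic actins, the proteins that buffer, sever, nucleate, cap, crosslink and contract actin filaments, plaque and membrane linkers, and the transcription factor Srf. The members were chosen by gene symbol with the ZA-against-Ctrl values of these same 6 libraries already known, so their differences between ZA and Ctrl are given as a description and carry no test of their own. RNA was sequenced from bone marrow-derived macrophages (BMDMs), primary macrophages grown from the femoral marrow of C57BL/6 mice during 7 days with macrophage colony-stimulating factor (M-CSF). The 3 Ctrl libraries came from BMDMs without ZA and the 3 ZA libraries from BMDMs at 12 h of exposure to ZA (zoledronic acid). No genetic alteration is named for these cells, and the study's wild-type C57BL/6 mice were females obtained at 6 weeks of age. The age at which marrow was taken, the ZA concentration of these libraries and the cultures or animals behind each replicate are not given in the sources used here, so p-values measure only the spread between these libraries, which may be technical.

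As background, actin cycles between a monomer pool and polar filaments that grow at their barbed ends and are severed and recycled behind them, a cycle that powers phagocytosis, membrane ruffling, podosomes and migration in macrophages. Monomeric actin binds the coactivators MRTF-A and MRTF-B and holds them away from SRF, so the size of the monomer pool feeds back on the transcription of actin and many actin-binding genes through the CArG box, the DNA element that SRF recognises. ZA is a nitrogen-containing bisphosphonate that inhibits farnesyl diphosphate synthase, the enzyme that supplies isoprenoids for the prenylation of many membrane-bound signalling proteins.

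Several members are known SRF target genes, and the promoters of the 5 members that were lower in every ZA library and hold a CArG box are shown. Each is the 250 bases upstream of the gene's start in the RefSeq promoter table for GRCm38.p6, 5′ to 3′ on the strand of the gene, with every CArG box in capitals (CC, then 6 bases of A or T, then GG, a pattern that reads the same on both strands). Actg1 lies at chr11:120348496-120348745 on the minus strand, Cnn2 at chr10:79988350-79988599 on the plus strand, Vcl at chr14:20929148-20929397 on the plus strand, Arpc4 at chr6:113377863-113378112 on the plus strand and Srf at chr17:46556163-46556412 on the minus strand.
Actg1: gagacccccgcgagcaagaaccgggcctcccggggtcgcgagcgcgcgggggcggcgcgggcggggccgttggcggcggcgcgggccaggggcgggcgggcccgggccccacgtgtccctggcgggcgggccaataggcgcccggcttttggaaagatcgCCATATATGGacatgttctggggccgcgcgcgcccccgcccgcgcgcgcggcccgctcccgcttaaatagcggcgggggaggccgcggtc
Cnn2: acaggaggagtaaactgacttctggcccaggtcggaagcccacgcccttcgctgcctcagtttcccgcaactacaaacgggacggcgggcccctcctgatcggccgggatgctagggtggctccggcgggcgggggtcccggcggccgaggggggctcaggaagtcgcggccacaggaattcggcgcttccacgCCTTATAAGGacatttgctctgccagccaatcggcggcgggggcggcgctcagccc
Vcl: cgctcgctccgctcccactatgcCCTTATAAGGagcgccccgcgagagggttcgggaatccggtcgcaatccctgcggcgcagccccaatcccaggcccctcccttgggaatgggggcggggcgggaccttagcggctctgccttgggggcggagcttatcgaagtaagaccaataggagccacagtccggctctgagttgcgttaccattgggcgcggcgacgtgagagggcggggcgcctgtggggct
Arpc4: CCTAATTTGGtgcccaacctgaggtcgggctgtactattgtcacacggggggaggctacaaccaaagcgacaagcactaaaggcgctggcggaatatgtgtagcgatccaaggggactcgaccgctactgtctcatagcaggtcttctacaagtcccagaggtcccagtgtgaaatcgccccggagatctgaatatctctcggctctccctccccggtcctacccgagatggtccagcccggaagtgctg
Srf: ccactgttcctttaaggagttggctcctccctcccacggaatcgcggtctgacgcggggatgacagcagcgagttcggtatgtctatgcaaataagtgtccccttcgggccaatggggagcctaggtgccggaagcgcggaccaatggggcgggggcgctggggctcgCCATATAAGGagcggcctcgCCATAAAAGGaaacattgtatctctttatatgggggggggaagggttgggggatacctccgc
The box ran from 90 to 81 bases before the start in Actg1, from 56 to 47 in Cnn2 and from 227 to 218 in Vcl. In Arpc4 it ran from 250 to 241, at the edge of the window. Srf had 2 boxes that did not overlap, from 82 to 73 and from 62 to 53 bases before its start. Among the 47 members found in the promoter table, 6 (12.8%) held a box in this window, the remaining one being Myl6, whose groups overlapped. A box was found in 482 of all 32851 promoters listed (1.47%), and in 103 of the 7913 tested genes that matched (1.30%). The log2 difference between ZA and Ctrl had a median of -0.16 over the 6 members with a box and -0.04 over the 41 without. The members were chosen with these differences known, so nothing is read from this contrast. Of the 23 members that were lower in every ZA library, 5 were found to hold a box. Over the 97 other tested genes with a box the median was 0.0076, with 45 lower in ZA. A match of letters is a description of the window and not a site of binding. Actb, Coro1b and Diaph1 were not matched.

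Library totals recovered from the table were between 41230600 and 42155808 fragments, with overlapping ranges in Ctrl and ZA. Values are FPKM (fragments scaled by transcript length and library total), and differences are ZA minus Ctrl in log2(FPKM + 1) from limma, which understates the change of low genes. With limma and Benjamini-Hochberg adjustment over all genes tested, 36 of 9800 genes (0.367%) passed at 0.05, of which 20 were higher in ZA and 16 were lower. Without Ctrl 1, Ctrl 2 or Ctrl 3 the number was 1, 1 or 6, and without ZA 1, ZA 2 or ZA 3 it was 25, 0 or 4. The median difference over all 9800 genes was 0.010, with 5579 higher and 4221 lower. The macrophage label was checked on 8 markers. All 8, among them Adgre1, Cd68, Csf1r and Lyz2, had a mean of 1 FPKM or more. Their sum was between 23609 and 28005 FPKM in the 6 libraries, of which Lyz2 alone made 20472 to 24669. Adgre1, Csf1r and, by narrow gaps, Cd68 and Cd14 were higher in every ZA library. Itgam, Mertk, Fcgr1 and Lyz2 overlapped between the groups. Many markers of other cell types were low, but not all, and some were lower in ZA. In the Ctrl libraries the platelet markers Ppbp and Pf4 stood at 65.1 to 79.7 and 57.8 to 62.2 FPKM. The osteoclast marker Ctsk stood at 25.98 to 29.08 FPKM in Ctrl. The sum over 4 megakaryocyte and platelet markers was 133.7 to 157 FPKM in Ctrl and 108 to 133.6 in ZA, that over 10 neutrophil and progenitor markers (Ly6g at 0 in every library) was 35.4 to 50.9 and 31.5 to 37.1, and that over 11 fibroblast and smooth muscle markers was 25.0 to 43.7 and 21.4 to 30.6. The sum over 4 endothelial markers was 5.86 to 7.68 FPKM in Ctrl and 5.50 to 6.03 in ZA, and that over 5 osteoclast markers 41.1 to 48.2 and 39.3 to 43.3. The erythroid sum was 0.380 to 2.63 FPKM in Ctrl and 0.777 to 1.82 in ZA, the B cell sum 0.409 to 0.773 and 0.245 to 0.484, and the T cell sum 0.0312 to 0.141 and 0.0545 to 0.103. The part of these cells in the differences below was not tested, and in bulk RNA fewer cells of a type and less RNA per cell cannot be told apart.

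Many of the actin cytoskeleton genes were among the more abundant transcripts of these BMDMs. Together the 50 members took 2.65%, 2.66% and 2.66% of all fragments in the Ctrl libraries and 2.52%, 2.55% and 2.59% in the ZA libraries. Every ZA library was thus below every Ctrl library. In Ctrl their mean level ran from 1.95 FPKM for Cnn3 to 2754 FPKM for Tmsb4x, the thymosin that sequesters actin monomers. In the order of Ctrl levels Tmsb4x was followed by Actb, the severing factor Cfl1, Actg1 and the Arp2/3 subunit Arpc1b, at 1335, 931, 692 and 643 FPKM. These 5 genes ranked 13, 31, 44, 63 and 71 among all genes tested. Of the 50 members, 32 stood at or above 100 FPKM in Ctrl. The spread between replicates was small, with a median coefficient of variation of 1.63% in Ctrl and 2.22% in ZA. Each member had between 96 and 112955 fragments in a library, and the low end belonged to Cnn3 and the high end to Tmsb4x.

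**Figure D1:**
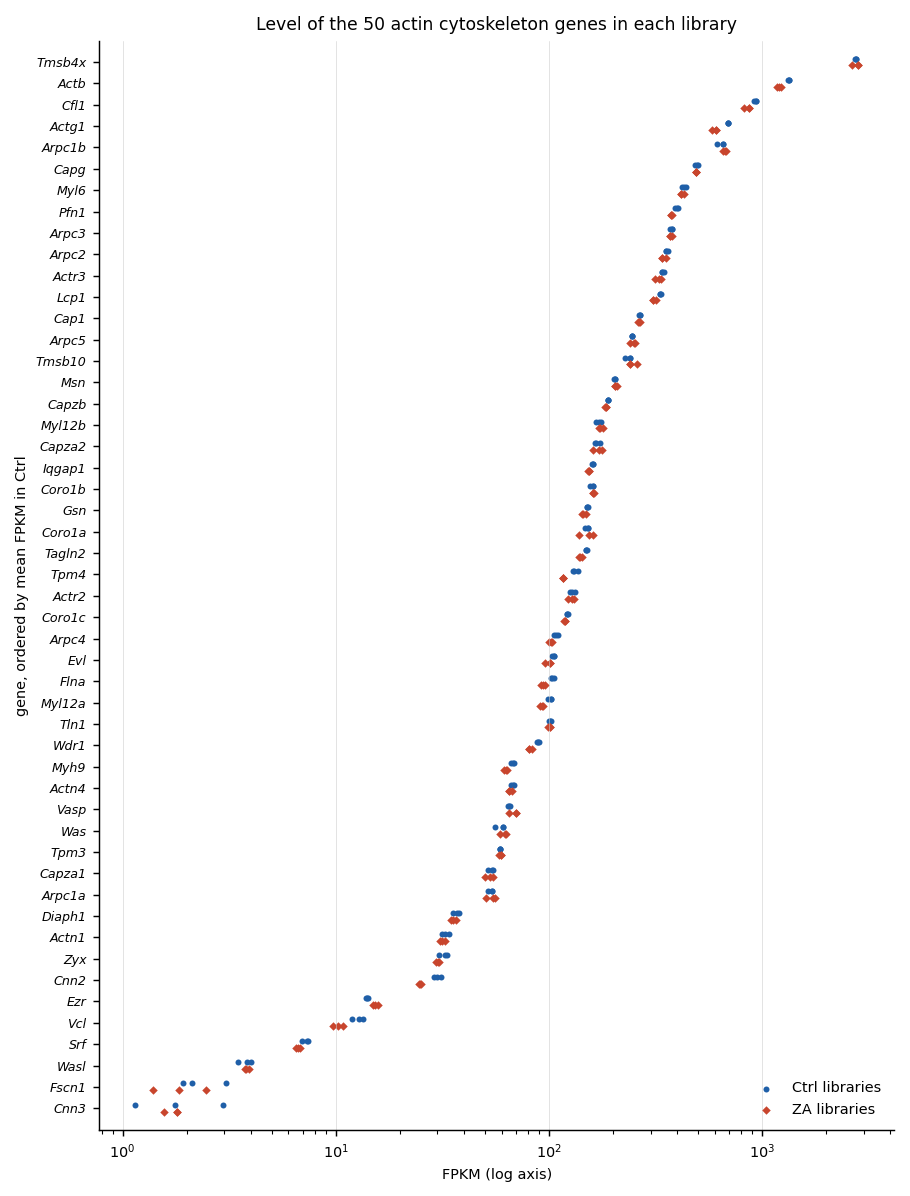
FPKM of the 50 actin cytoskeleton genes in each library on a log axis, ordered by the Ctrl mean (blue circles, 3 Ctrl libraries, red diamonds, 3 ZA libraries). Levels span from 1.95 FPKM for Cnn3 to 2754 FPKM for Tmsb4x in Ctrl, and the libraries spread widely only for Fscn1 and Cnn3.

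Across the 50 members 35 were lower and 15 higher in ZA, and the differences were small. They ran from -0.28 for Vcl to 0.12 for Ezr on the log2(FPKM + 1) scale, with a median of -0.04. Among the 571 genes at or above 100 FPKM in Ctrl the median was 0.0043 and 47.5% were lower in ZA, while among the 32 members in that range it was -0.04 and 23 were lower. An unadjusted p-value under 0.05 in the limma fit was reached by 20 members on the lower side, where 4.85% of all genes tested reached it, and by 1 member on the higher side (Ezr), where 7.5% of all genes did. All 3 ZA libraries lay below all 3 Ctrl libraries for 23 members (6.76% of all genes tested) and above them for 2 members (11.4% of all genes tested), and the groups overlapped for 25. An adjusted p-value under 0.05 was reached by 4 members, Actb, Actg1, Cnn2 and Tpm4, all lower in ZA. As these values chose the members, the counts are descriptions and nothing is read from their distance to the background. Without ZA 1 the number with an adjusted p-value under 0.05 was 1 (Actg1) and that of unadjusted calls on the higher side was 3, while without Ctrl 1, Ctrl 2, Ctrl 3, ZA 2 or ZA 3 the former was 0. Another scaling of the libraries or a left-out library turned the sign of 13 members, all of them with overlapping groups (Actr2, Arpc1a, Arpc3, Capg, Capza1, Capza2, Cnn3, Coro1a, Coro1b, Tln1, Tmsb4x, Tpm3 and Wasl), so no direction is read for these. The median of the members lay between -0.053 and -0.039 when any library was left out.

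**Figure D2:**
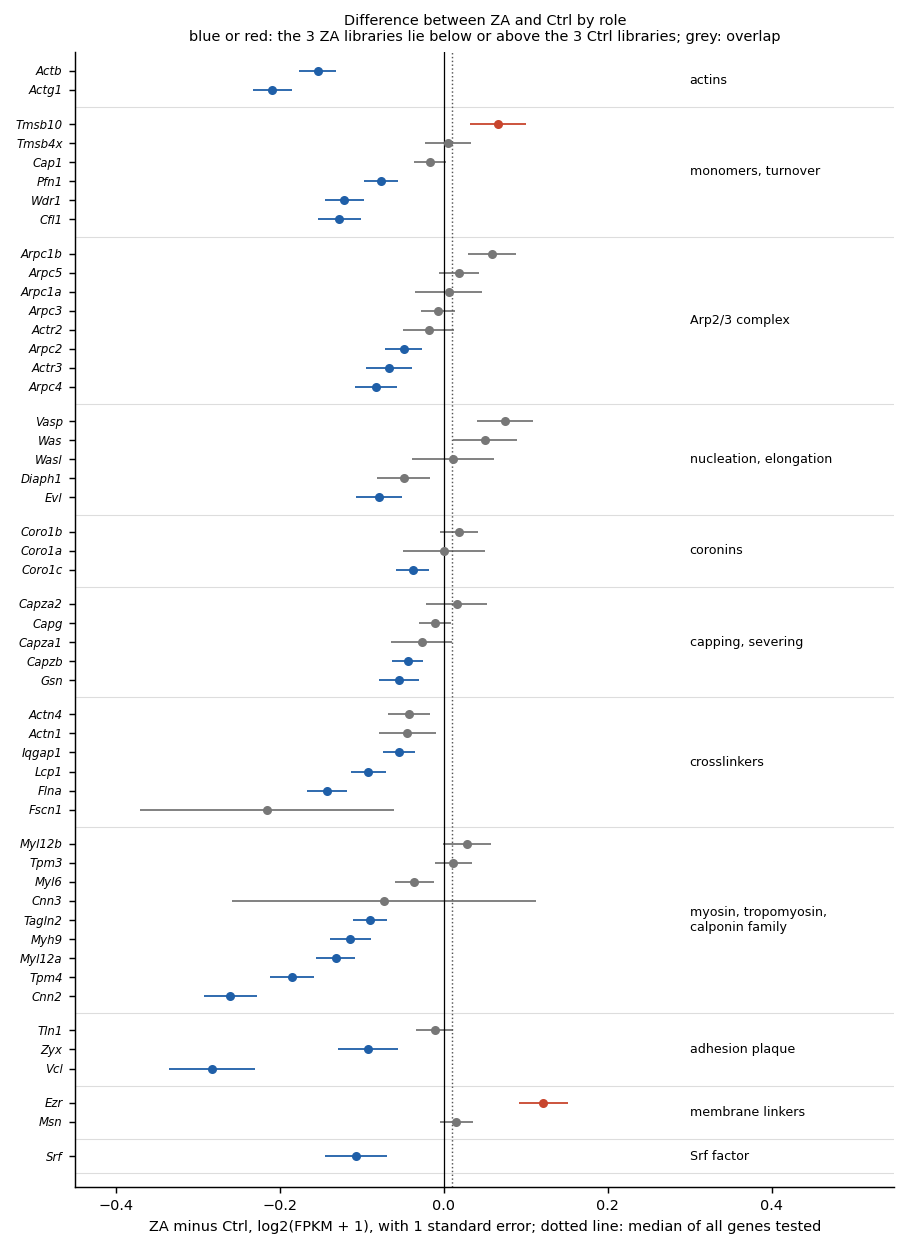
Difference between ZA and Ctrl of the 50 genes by role, in log2(FPKM + 1) with 1 standard error. Blue marks the 23 genes whose ZA libraries all lie below the Ctrl libraries, red the 2 genes (Tmsb10 and Ezr) for which they lie above, grey the 25 with overlap, and the dotted line the median of all genes tested (0.010).

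Both cytoplasmic actins were lower in ZA. Actb, which encodes beta-actin, measured 1340.3, 1322 and 1344 FPKM in the Ctrl libraries and 1171, 1201 and 1228 FPKM in the ZA libraries. The groups did not overlap, with means of 1335 ± 11.9 and 1200.1 ± 28.3 FPKM (SD, n = 3 each), 89.9% of Ctrl and a log2 difference of -0.15 ± 0.02 (SE). Actg1, which encodes gamma-actin, measured 692, 694 and 689.8 FPKM in Ctrl and 608, 579.8 and 608 FPKM in ZA. Its Ctrl libraries lay within 4.35 FPKM of each other and every ZA library was lower, at 86.5% of Ctrl and a log2 difference of -0.21 ± 0.02. The summed FPKM of both actins came to 2032, 2016 and 2033 in Ctrl and to 1779, 1781 and 1835 in ZA. The ratio of Actb to Actg1 was 1.93 ± 0.02 in Ctrl and 2.01 ± 0.07 in ZA, with overlap between the groups. In the GENCODE transcripts 32.7% of the 150-base stretches of Actg1 also occurred in transcripts of other genes, chiefly Gm12715, so its level depends on how such reads were counted. For Actb no stretch was shared.

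The monomer pool and filament turnover group held the most abundant member, Tmsb4x, and 3 genes that were lower in every ZA library. Of all genes tested 6.76% were lower in every ZA library and 11.4% were higher. Cfl1 encodes cofilin 1, which severs aged filaments, and measured 917, 933 and 942 FPKM in Ctrl and 820.3, 869 and 867 in ZA. Each ZA library was lower than each Ctrl library, at 91.6% of Ctrl and a log2 difference of -0.13 ± 0.03. Wdr1, the cofilin cofactor, stood at 89.0 ± 0.871 FPKM in Ctrl and 81.7 ± 1.62 in ZA, and Pfn1, the profilin that delivers monomers to growing ends, at 397 ± 6.57 and 377 ± 1.35. In these 2 genes the groups were also apart. Tmsb10, another thymosin, measured 239.4, 239.1 and 228 FPKM in Ctrl and 242, 259 and 239.99 in ZA. Its ZA libraries lay above the Ctrl libraries, by as little as 0.565 FPKM between the nearest pair, with a log2 difference of 0.07 ± 0.03. Tmsb4x (2754 ± 23.4 and 2763 ± 103 FPKM) and Cap1 (268 ± 1.73 and 264 ± 3.27 FPKM), which recycles monomers, overlapped between the groups. The ratio of Tmsb4x to Tmsb10 was 11.7 ± 0.405 in Ctrl and 11.2 ± 0.504 in ZA.

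The Arp2/3 complex nucleates branched filaments. Over the 8 genes of its subunits, of which Arpc1a and Arpc1b are paralogues, the median log2 difference was -0.01. Of these genes 3 (Arpc2, Actr3 and Arpc4) were lower in every ZA library, as were 6.76% of all genes tested. The groups of the other 5 overlapped. Arpc4 measured 106, 108 and 111 FPKM in Ctrl and 100.1, 104 and 103 in ZA, without overlap and with a log2 difference of -0.08 ± 0.03. Arpc1b, the most abundant subunit, measured 618, 655 and 656 FPKM in Ctrl and 653, 674 and 681 in ZA. Here Ctrl 1 was lowest and ZA 1 fell between the Ctrl libraries, so the groups overlapped (0.06 ± 0.03). The summed FPKM of the 8 genes came to 2219, 2262 and 2281 in Ctrl and to 2198, 2257 and 2286 in ZA, also with overlap. Actr3 (342 ± 5.80 and 327 ± 10.9 FPKM) and Arpc2 (357 ± 3.82 and 345 ± 7.80 FPKM) were the other subunits without overlap. The ratio of Arpc1b to its paralogue Arpc1a was 12.04 ± 0.680 in Ctrl and 12.5 ± 0.841 in ZA.

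Among the factors that start and elongate filaments, the Ena/VASP paralogues lay on opposite sides of zero. Evl measured 105.9, 106 and 104 FPKM in Ctrl and 101, 101.5 and 96.0 in ZA, with all ZA libraries lower (-0.08 ± 0.03). Vasp measured 64.1, 64.7 and 66.0 FPKM in Ctrl and 65.0, 70.2 and 70.2 in ZA, where ZA 1 fell within the Ctrl range (0.07 ± 0.03). The ratio of Vasp to Evl came to 0.605, 0.610 and 0.637 in Ctrl and to 0.643, 0.691 and 0.731 in ZA. Every ZA ratio was thus higher than every Ctrl ratio, although the closest values differed by little. Was and Wasl, which activate the Arp2/3 complex, and the formin Diaph1 overlapped between the groups. Was stood at 59.2 ± 2.85 FPKM in Ctrl and 61.3 ± 1.95 in ZA, Wasl at 3.78 ± 0.267 and 3.82 ± 0.083, and Diaph1 at 36.9 ± 1.23 and 35.6 ± 0.822.

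The coronins and the capping and severing proteins differed little. Coro1c, a coronin of lamellipodia, measured 123, 121 and 122 FPKM in Ctrl and 118, 119 and 119.6 in ZA. The groups were apart by a narrow gap (-0.04 ± 0.02). Coro1b measured 162, 161.5 and 156 FPKM in Ctrl and 161, 163 and 161.1 in ZA, with overlap (0.02 ± 0.02), and 14.7% of its 150-base stretches lay in the overlapping gene Ptprcap, whose mean level was 0.374 FPKM. Coro1a, the leukocyte coronin, stood at 151 ± 2.85 FPKM in Ctrl and 151 ± 11.6 in ZA. Gsn, which severs and caps filaments in response to calcium, measured 151, 153 and 150.2 FPKM in Ctrl and 142, 145 and 149 in ZA. All ZA values of Gsn were lower, ZA 3 by 0.856 FPKM (-0.05 ± 0.02). Capza2, a subunit of the barbed-end capping protein, measured 165, 166 and 173 FPKM in Ctrl and 161, 172 and 178 in ZA. These ranges overlapped (0.02 ± 0.04), as did those of Capg (493 ± 7.77 and 489 ± 1.04 FPKM) and Capza1 (53.5 ± 1.45 and 52.6 ± 2.39 FPKM), while Capzb (189.7 ± 0.934 and 184 ± 0.815 FPKM) was lower in each ZA library. In Capza1 49.1% of the stretches were shared with Gm3608, which makes its level uncertain.

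All 6 crosslinkers and scaffolds were lower in ZA by their means, as were 4221 of all 9800 genes tested by their log2 difference. Flna, filamin A, which joins filaments into networks, stood at 104 ± 1.66 FPKM in Ctrl and 93.8 ± 1.82 in ZA, a log2 difference of -0.14 ± 0.02. Lcp1, the leukocyte plastin that bundles filaments, stood at 333 ± 3.44 and 312 ± 5.49 FPKM, and Iqgap1, a scaffold for Rac1 and Cdc42, at 160.3 ± 0.470 and 154 ± 1.22 FPKM. For these 3 genes no ZA library reached the Ctrl range, and 6.76% of all genes tested were lower in this way. Actn4, an alpha-actinin, measured 68.0, 68.4 and 66.6 FPKM in Ctrl and 67.5, 64.8 and 64.8 in ZA. ZA 1 lay within the Ctrl range (-0.04 ± 0.03). Its paralogue Actn1 also overlapped (32.6 ± 1.27 and 31.6 ± 0.783 FPKM). Fscn1, the filopodial bundler fascin, measured 3.07, 2.12 and 1.91 FPKM in Ctrl and 2.46, 1.84 and 1.396 in ZA. The groups overlapped, with coefficients of variation of 26.1% and 28.2%, so its difference of -0.22 ± 0.15 was not larger than the spread between replicates. It was -0.07 without Ctrl 1, -0.09 without ZA 3 and -0.35 without ZA 1.

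The largest group, of 9 non-muscle myosin, tropomyosin and calponin family genes, held 7 lower and 2 higher genes, with a median of -0.09. Of all 9800 genes tested 4221 were lower and 5579 higher. Cnn2, calponin 2, which stabilises filaments, measured 31.2, 29.8 and 29.0 FPKM in Ctrl and 25.1, 24.6 and 25.0 in ZA. The lowest Ctrl library stood above the highest ZA library by 3.91 FPKM, with ZA at 82.9% of Ctrl and a log2 difference of -0.26 ± 0.03. Tpm4, a tropomyosin that wraps non-muscle filaments, measured 138, 129.5 and 131 FPKM in Ctrl and 117, 116 and 117 in ZA. The ZA values were close together and below all Ctrl values, at 87.8% of Ctrl (-0.19 ± 0.03). Myh9, the heavy chain of non-muscle myosin IIA, stood at 67.9 ± 1.09 FPKM in Ctrl and 62.6 ± 1.15 in ZA. Tagln2, the leukocyte transgelin, stood at 149.8 ± 0.661 and 141 ± 1.78 FPKM, and neither gene overlapped between the groups. Among the light chains Myl12a stood at 101 ± 1.72 and 92.4 ± 1.49 FPKM (-0.13 ± 0.02), also apart. Myl12b measured 171.3, 167 and 177 FPKM in Ctrl and 171.3, 173 and 180.1 in ZA. Its groups overlapped (0.03 ± 0.03), and so did those of the essential light chain Myl6 (432 ± 9.62 and 421 ± 6.87 FPKM). Tpm3 (58.9 ± 0.324 and 59.4 ± 0.644 FPKM) also overlapped between the groups.

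Within this group the paralogues differed in proportion. The ratio of Tpm3 to Tpm4 came to 0.427, 0.453 and 0.451 in Ctrl and to 0.511, 0.514 and 0.503 in ZA, and that of Myl12b to Myl12a came to 1.67, 1.68 and 1.73 in Ctrl and to 1.83, 1.86 and 1.99 in ZA. Both ratios were higher in every ZA library than in any Ctrl library. Part of these sequences is shared: 14.0% of the Myl12b and 13.3% of the Myl12a stretches occur in the other gene, and 18.1% of the Tpm3 stretches occur in Tpm3-rs7. Cnn3, the least abundant member, measured 2.95, 1.75 and 1.15 FPKM in Ctrl and 1.79, 1.80 and 1.56 in ZA. Ctrl 1 was highest and Ctrl 3 lowest, with all ZA libraries between them, and without Ctrl 1 the log2 difference turned from -0.07 to 0.16. The ratio of Cnn2 to Cnn3 came to 10.6, 17.02 and 25.2 in Ctrl and to 14.0, 13.6 and 15.98 in ZA, with overlap. Fscn1 was also highest in Ctrl 1, as was the sum of fibroblast and smooth muscle markers (43.7 FPKM, against 21.4 to 33.1 in the other libraries). Whether these cells contributed to Cnn3 or Fscn1 was not tested.

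Of the adhesion plaque genes Vcl had the largest difference of all members on the log2(FPKM + 1) scale. Vinculin, its product, links talin to actin, and Vcl measured 13.4, 12.8 and 11.9 FPKM in Ctrl and 10.9, 10.2 and 9.68 in ZA. Each ZA library was below each Ctrl library, at 80.8% of Ctrl and a log2 difference of -0.28 ± 0.05. Zyx, zyxin, stood at 32.2 ± 1.46 FPKM in Ctrl and 30.1 ± 0.573 in ZA, with a gap of 0.016 FPKM between the groups. Tln1, talin 1, which activates integrins, measured 101.4, 102 and 99.9 FPKM in Ctrl and 101.6, 98.6 and 101 in ZA. Its groups overlapped (-0.01 ± 0.02).

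The ezrin and moesin genes tie filaments to the plasma membrane, and Ezr was the member with the largest difference on the higher side. Ezr measured 14.0, 13.9 and 14.2 FPKM in Ctrl and 15.3, 15.7 and 15.01 in ZA. No ZA library reached down to the Ctrl range, and ZA stood at 109% of Ctrl (0.12 ± 0.03). Msn measured 205, 202 and 204 FPKM in Ctrl and 204, 205.0 and 209 in ZA, with overlap (0.02 ± 0.02). Msn was the more abundant, with a ratio of Msn to Ezr of 14.5 ± 0.098 in Ctrl and 13.4 ± 0.435 in ZA, lower in all ZA libraries.

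Srf, the transcription factor that binds the CArG box, measured 7.45, 7.33 and 6.94 FPKM in Ctrl and 6.77, 6.62 and 6.54 in ZA. Its ZA libraries were all below its Ctrl libraries, at 91.8% of Ctrl and a log2 difference of -0.11 ± 0.04. The lowest value of a gene over the 6 libraries fell in ZA 1 for 16 members, in ZA 2 for 10 and in ZA 3 for 12, against 4, 3 and 5 members in Ctrl 1, Ctrl 2 and Ctrl 3. No single ZA library thus held most of the low values.

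**Figure D3:**
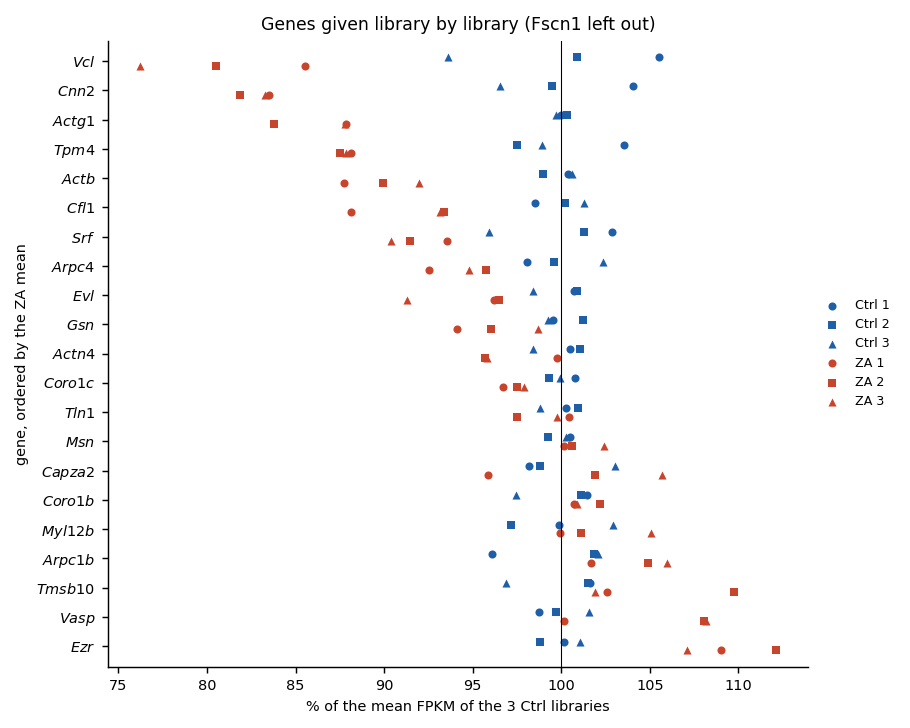
Members given library by library, as percent of the mean FPKM of the 3 Ctrl libraries (blue, Ctrl, red, ZA, a symbol for each replicate). ZA means run from 80.8% for Vcl to 109% for Ezr, and Fscn1 is left out because its libraries spread by 26.1% in Ctrl.

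The other genes of the pathway were taken from 6 lists of 151 genes that are no members, of which 123 were tested, and 4 of the lists are described one by one. None reached an adjusted p-value under 0.05 with limma (lowest 0.088, for Lima1). Before adjustment, p-values under 0.05 on the higher side numbered 10, against 7.5% of all genes tested, and on the lower side 13, against 4.85%. Without Ctrl 1 the number of lower genes was 7, and without ZA 3 there were 6 higher and 6 lower genes. Their median difference was -0.0033, near that of all genes tested.

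Over all genes tested 7.5% reached an unadjusted p-value under 0.05 with limma on the higher side and 4.85% on the lower side. Of the other nucleators and WAVE complex genes 0 of 24 reached it. Here the WAVE subunits Brk1 (125 ± 2.27 and 120.1 ± 2.0005 FPKM) and Cyfip2 (6.29 ± 0.093 and 5.90 ± 0.250 FPKM) and the cortactin gene Cttn (2.85 ± 0.435 and 2.40 ± 0.162 FPKM) had the largest statistics, all on the lower side. None of these 3 genes passed adjustment (lowest adjusted p = 0.41 with limma).

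Among the other actin-binding and myosin genes 4 of 25 were higher and 3 lower at an unadjusted p-value under 0.05 with limma. Of all genes tested 7.5% were higher and 4.85% lower at this limit. Lima1, which crosslinks filaments and slows their turnover, measured 21.7, 22.2 and 23.4 FPKM in Ctrl and 19.5, 19.6 and 20.02 in ZA. The groups were apart, with a log2 difference of -0.18 ± 0.03 (adjusted p = 0.088 with limma). Cotl1, a cofilin-family protein that binds filaments, stood at 418 ± 5.69 FPKM in Ctrl and 390.1 ± 6.22 in ZA (-0.10 ± 0.02, adjusted p = 0.11 with limma), and the coronin Coro2a at 16.8 ± 0.398 and 18.1 ± 0.246 (0.10 ± 0.03, adjusted p = 0.25 with limma). In the podosome and focal adhesion list 2 of 17 were higher and 2 lower, against the same shares of 7.5% and 4.85% of all genes tested. Parvg, the leukocyte parvin, stood at 7.43 ± 0.621 and 6.19 ± 0.219 FPKM (-0.23 ± 0.06, adjusted p = 0.17 with limma) and paxillin, Pxn, at 29.2 ± 0.166 and 30.9 ± 0.258 (0.08 ± 0.02, adjusted p = 0.25 with limma).

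**Figure D4:**
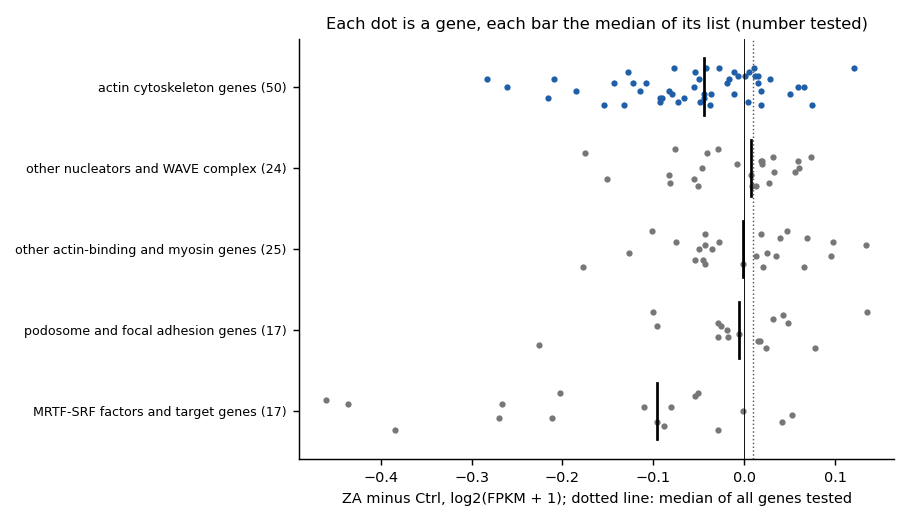
Difference between ZA and Ctrl in log2(FPKM + 1) of each gene (dots) for the 50 members and the tested genes of 4 other lists, with each list's median as a bar. Medians are -0.04 for the members, -0.10 for the MRTF-SRF list and between -0.01 and 0.01 for the others, and the dotted line is the median of all genes tested (0.010).

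In the list of MRTF-SRF factors and target genes 15 of 17 tested genes were below zero, also after centring or quantile normalization. Their median was -0.10. Without Ctrl 1 the number was 13, without Ctrl 2 or ZA 2 it was 14, and at a mean FPKM of at least 5 it was 6 of 7. Of all 9800 genes tested 4221 were below zero, and 5060 after centring. Before adjustment 0 genes of this list on the higher side and 5 on the lower side had a p-value under 0.05 with limma. Over all genes tested the shares were 7.5% and 4.85%. After adjustment no gene of the list passed (lowest adjusted p = 0.24 with limma). The number of lower genes with such an unadjusted p-value was 2 without ZA 3 and 10 without Ctrl 3. Myl9, a regulatory light chain of contractile cells, measured 4.11, 3.14 and 2.42 FPKM in Ctrl and 2.39, 1.86 and 1.87 in ZA, a log2 difference of -0.46 ± 0.14. Tagln, the smooth muscle transgelin, measured 4.71, 3.20 and 3.05 FPKM in Ctrl and 2.95, 2.37 and 1.94 in ZA (-0.44 ± 0.14). Without Ctrl 1 the difference was -0.28 for Tagln and -0.31 for Myl9, and these genes had 130 to 311 and 87 to 193 fragments in a library. Tpm1, a tropomyosin, measured 13.2, 12.9 and 12.5 FPKM in Ctrl and 11.8, 12.04 and 11.7 in ZA (-0.11 ± 0.03). For these 3 genes the groups did not overlap. The remaining pair, Acta2 (-0.38 ± 0.13) and Thbs1 (-0.20 ± 0.07), was named after its values were seen, and Acta2 was at -0.23 without Ctrl 1. The coactivator gene Mrtfa, taken for its role after its values were seen, stood at 29.9 ± 1.12 FPKM in Ctrl and 29.9 ± 0.675 in ZA.

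Several genes of this list are also markers of fibroblasts and smooth muscle cells. Of the 11 such markers 9 had a lower mean in ZA, and their sum came to 43.7, 33.1 and 25.0 FPKM in Ctrl and to 30.6, 26.0 and 21.4 in ZA. Cnn1, which is in both lists, stood at or below 0.034 FPKM in every library and was 0 in ZA 2. Without the 3 markers that are in both lists, the sum of the other 8 (collagens, Dcn, Lum, Postn, Pdgfra and Pdgfrb) came to 34.7, 26.7 and 19.3 FPKM in Ctrl and to 25.0, 21.3 and 17.5 in ZA, with overlap between the groups and with ZA at 79.1% of Ctrl. Without these 3 genes 13 of 15 tested genes of the MRTF-SRF list were lower and the median was -0.09. The part of fibroblasts in these differences was not tested. The megakaryocyte and platelet sum came to 157, 140.2 and 133.7 FPKM in Ctrl and to 133.6, 125 and 108 in ZA. The part of those cells was not tested either. Among the Ctrl libraries Vcl, Cnn2 and Srf, like these 3 marker sums, were highest in Ctrl 1 and lowest in Ctrl 3. Tpm4 was highest in Ctrl 1 and lowest in Ctrl 2, and Actg1 was highest in Ctrl 2 and lowest in Ctrl 3.

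**Figure D5:**
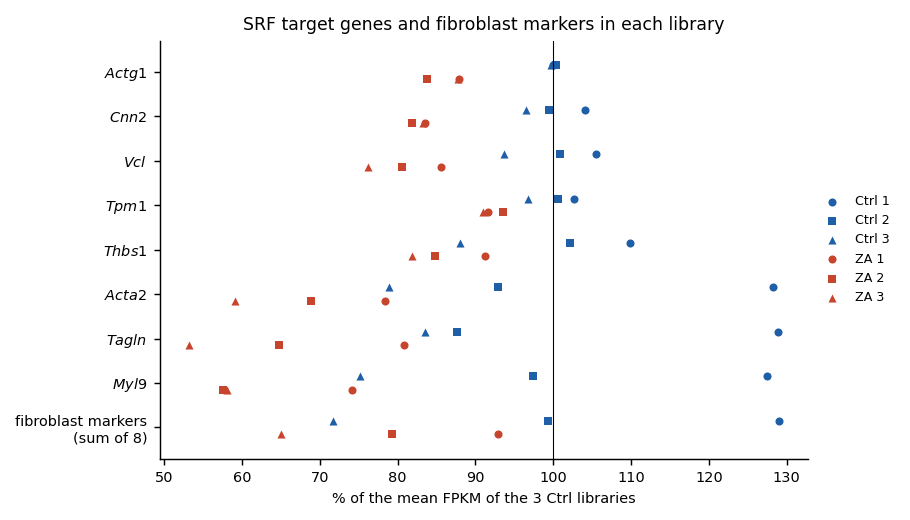
SRF target genes and the sum of 8 fibroblast markers in each library, as percent of the mean FPKM of the 3 Ctrl libraries. The genes were chosen with their values known. They are 3 members lower in every ZA library and the 5 MRTF-SRF list genes lower at an unadjusted p-value under 0.05 with limma. The 2 tested genes of that list above zero are not shown. Among the Ctrl libraries 7 of the 8 genes and the marker sum are highest in Ctrl 1 and lowest in Ctrl 3, and Actg1 is highest in Ctrl 2.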

How the data were processed

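RNA of 3 Ctrl and 3 ZA libraries of mouse BMDMs was sequenced as 150 bp read pairs. The authors deposited a single FPKM table with 35434 gene rows. The submitters' processing notes name the genome build mm9, while the aligner and the counting program are not given in the sources used here. The labels name 2 library kits, VAHTS and SMARTER. All but 11 rows lack separators between values. They were split where the digits allowed only 1 reading (21157 rows) or where only 1 reading gave whole fragments (14259 rows), and 7 rows, none of a member, were left out. All 50 members had whole fragments in every library.

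Genes averaging 1 FPKM or more over the 6 libraries (9800) entered a two-sided limma fit (limma 3.58.1, R 4.3.3, trended eBayes) of log2(FPKM + 1), adjusted by Benjamini-Hochberg. Tested genes had a median of 1395 fragments per library. The splitting of rows and the limma fit were each tested on simulated data. Values in every library are given for Actb, Actg1, Srf, the members with the highest and lowest difference in each role, and members with an adjusted p-value under 0.05. In each other list the 3 genes with the largest moderated statistic are named. Some of these genes and lists are not reported here. The members, roles and lists were chosen with earlier results of these data known. Promoters came from RefSeq (GRCm38.p6), shared 150-base stretches from GENCODE transcripts. Tables were made with Python 3.11.15 and pandas 2.3.3. Alternatives were another pseudocount, filter, scaling, variance prior, replicate block, voom on the recovered fragments, and leaving out each library.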

Additional observations from a re-analysis of the deposited data

How the results depend on the processing

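The pseudocount of 0.1 changed no count by over 1.5 times. Genes with an adjusted p-value under 0.05 numbered 36 of all genes, 20 with quantile normalization, 1 with a variance prior without a trend, 132 with voom on the recovered fragments and 0 to 25 without a library. Of these 20 were higher and 16 lower, against 11 and 18 after median centring of libraries and 10 and 10 with quantile normalization. Among the 50 members such calls numbered 4, against 0 with no filter on low values, 0 without the trend, 11 with voom and 0 to 1 without a library. Unadjusted calls of members on the higher side numbered 1, against 2 with quantile normalization, 3 with voom and 1 to 3 without a library. The median of the members was -0.044, -0.057 after centring and -0.053 to -0.039 without a library, and after centring 40 rather than 35 members were lower. Of the other pathway genes 13 were lower at an unadjusted p-value under 0.05, 8 with a mean FPKM of at least 5 and 6 to 19 without a library, 10 were higher (6 to 13 without a library), and 0 passed adjustment, against 4 with voom. With the replicate number as a replicate block the calls were 78 of all genes, 6 members (Cfl1 and Vcl besides the 4), 4 members at an unadjusted p on the higher side and 1 other gene (Tagln). Same-numbered libraries correlated in their deviations at 0.284, 0.039 and 0.280, and each ZA library correlated best with its own number, a hint from the data, not the design. Of the 40 named genes 4 had a call (Actb, Actg1, Cnn2 and Tpm4). Over 555 alternative values of the named genes these calls were lost in 31, all in the same direction, and genes without a call gained one in 5. Of the members without a call 13 changed sign in at least 1 alternative. The cause of these changes was not tested. Depth limits Cnn3 and Fscn1 (96 to 341 fragments in a library), Tagln (130 to 311) and Myl9 (87 to 193).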
